A study of Mus musculus with 3 samples.

Results

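The nuclei described here were 749 of the 43464 kept nuclei in 3 single-nucleus RNA libraries from the mouse prefrontal cortex (PFC). They were chosen by their counts of unique molecular identifiers (UMIs, each of which tags 1 captured RNA molecule). A nucleus was taken if it had at least 2 UMIs summed over Slc47a1, Slc26a7 and Foxd1, if that sum was no smaller than its sum over Slc6a13 and Ranbp3l, if it had no UMI of Flt1, and if it had at most 1 UMI over the neuron genes Slc17a7, Gad1 and Gad2. A barcode was kept as a nucleus when it had 200 genes or more and its mitochondrial share of UMIs was below 10%. The rule was written for outer meningeal fibroblasts, with Slc47a1, Foxd1, Slc26a7, Mgp and Fn1 as markers, and the nuclei are called Slc47a1/Foxd1 nuclei below.

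The study asked how Nav1, which encodes a protein that guides growing neurites, affects cocaine self-administration, and it profiled PFC nuclei of knockout and control mice. The C57BL/6 library was made from the pooled PFC of 5 wild-type mice. The Nav1 KO library was made from 4 mice of the same strain that carry a deletion at the end of exon 1 of Nav1. The BTBR library was made from mice of the inbred strain BTBR T<+> Itpr3<tf>/J, whose number is not given in the sources used here. All mice were males of 6 to 8 weeks, and no drug treatment is named in their labels. Nuclei were stained for the neuronal protein NeuN and sorted to a chosen mixture of NeuN+ and NeuN- nuclei, as described for the Nav1 KO and C57BL/6 samples. The C57BL/6 and Nav1 KO libraries were therefore 1 pool and 1 sort each, and whether BTBR was pooled and sorted in the same way is not stated in the sources used here. Each group had 1 library. Values are given below in the order C57BL/6, Nav1 KO, BTBR, and differences between these libraries have no replicate and no test.

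The brain is wrapped by the meninges, whose inner layers, the pia and the arachnoid, follow the cortical surface, while the dura lies outside them. Fibroblasts of each layer secrete collagens and other matrix proteins, and they send BMP, WNT, retinoid and chemokine signals to the brain surface and to the skull. Cells of the outer arachnoid also form a barrier, with efflux transporters and cell junctions, between the dura and the cerebrospinal fluid. Foxd1 is a forkhead transcription factor of mesenchymal precursors, Slc47a1 exports organic cations and Slc26a7 carries anions. Slc6a13 (a GABA and taurine transporter) and Ranbp3l are best known from fibroblasts nearer the brain.

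The 3 libraries held 15402, 14623 and 15238 barcodes, of which 14630, 14056 and 14778 were kept, with medians of 2074, 2754 and 2510.5 UMIs per nucleus. Among kept nuclei, 1342 had at least 2 UMIs of the 3 genes. Of these, 252 had more UMIs of Slc6a13 and Ranbp3l, a further 45 had a UMI of Flt1 (an endothelial receptor), and a further 296 had more than 1 UMI of the neuron genes. In 48 of the 749 nuclei that remained the outer and inner sums were equal, and 183 had at least 1 UMI of Slc6a13 or Ranbp3l. The Slc47a1/Foxd1 nuclei held 259101, 871090 and 434747 UMIs, with medians of 1343, 1907.5 and 1511 UMIs and 758, 960.5 and 848 genes per nucleus. The libraries shared 66, 59 and 55 cell barcodes in their 3 pairings, and no barcode was shared between Slc47a1/Foxd1 nuclei of different libraries.

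For comparison, 874 nuclei were taken by the mirror rule. They had at least 2 UMIs over Slc6a13 and Ranbp3l, a sum greater than that over Slc47a1, Slc26a7 and Foxd1, and the same limits on Flt1 and neuron genes. These Slc6a13/Ranbp3l nuclei numbered 184, 381 and 309. A neuron set of 7195 nuclei, each with at least 5 UMIs of Slc17a7, Gad1 and Gad2, served as a background of cells that should lack meningeal genes.

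The labels were checked on 3 genes. Nav1 was at 154, 94.1 and 69.0 CPM (UMIs per 1000000 UMIs of the same nuclei) in the Slc47a1/Foxd1 nuclei, from 40, 82 and 30 UMIs. In all other kept nuclei it was at 346, 267 and 146 CPM, so RNA of the gene was counted in the library labelled Nav1 KO. The library kit captures RNA at its 3′ end and the deletion is in exon 1, so these counts do not check the knockout. Xist, the RNA that silences an X chromosome in female cells, had 0 UMIs in the Slc47a1/Foxd1 nuclei of each library, as male mice would give. Nnt, a mitochondrial transhydrogenase, had 3, 12 and 7 UMIs, too few to compare.

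The label of fibroblasts was then set against the genes the rule did not use. All 14 genes of a fibroblast list were counted in the Slc47a1/Foxd1 nuclei of each library, and they summed to 1524, 1779 and 1608 CPM. The same genes summed to 1559, 1876 and 1649 CPM in the Slc6a13/Ranbp3l nuclei and to 254, 273 and 266 CPM in the neuron set. In nuclei with at least 2 UMIs of Vtn, Rgs5, Kcnj8 and Abcc9 they summed to 697, 541 and 829 CPM. Col1a2, a chain of type I collagen, was at 259, 318 and 246 CPM against 6.45, 15.3 and 8.53 CPM in all other kept nuclei. The nuclei are thus fibroblast-like by these genes, with a sum close to that of the Slc6a13/Ranbp3l nuclei, although single genes differed. In the comparison of both sets given below, 3 of 13 tested fibroblast genes were higher (Col6a2, Col6a1 and Fbln1) and 4 were lower (Lum, Dcn, Pdgfra and Bicc1), where 5.73% of all 7690 genes tested were higher and 5.41% lower. Whether they lay in the outer meninges was not measured, since the counts hold no position.

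Slc47a1/Foxd1 nuclei made up 0.984% of kept nuclei in C57BL/6 (144 nuclei, Clopper-Pearson 95% interval 0.831 to 1.16%), 2.76% in Nav1 KO (388 nuclei, 2.50 to 3.04%) and 1.47% in BTBR (217 nuclei, 1.28 to 1.68%). All intervals here cover counting error only. The share was highest in Nav1 KO and lowest in C57BL/6, and the 3 intervals did not overlap. As a ratio the share was 2.80 (2.31 to 3.42) in Nav1 KO over C57BL/6 and 1.49 (1.20 to 1.85) in BTBR over C57BL/6.

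**Figure D1:**
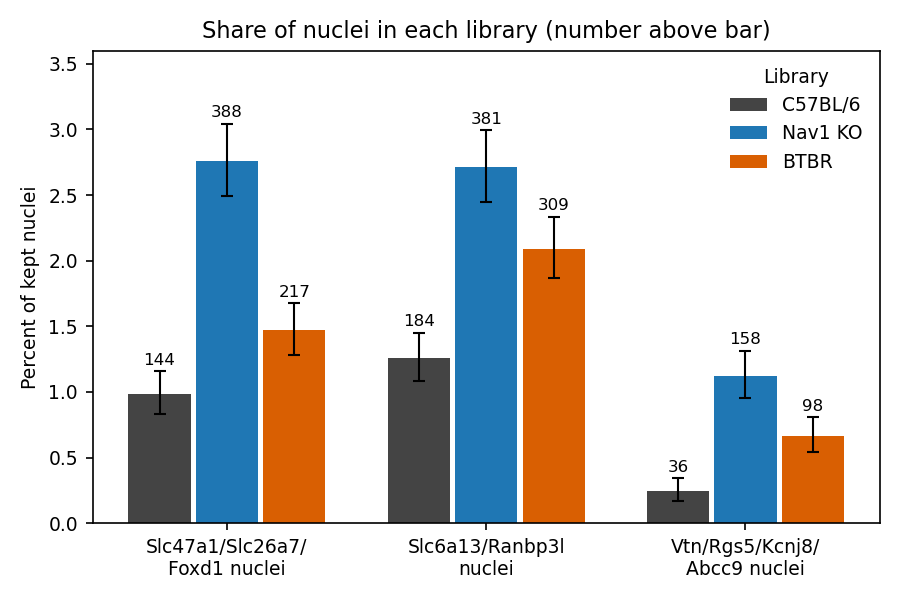
Bars give the percent of kept nuclei (vertical axis) in each library for the Slc47a1/Foxd1 nuclei, the Slc6a13/Ranbp3l nuclei and nuclei with at least 2 UMIs of Vtn, Rgs5, Kcnj8 and Abcc9, with exact 95% binomial intervals as lines and numbers of nuclei above. All 3 kinds were most frequent in Nav1 KO and least frequent in C57BL/6.

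Several other sets of nuclei had the same order of libraries. Nuclei with at most 1 UMI of the neuron genes were 56.5%, 43.9% and 43.2% of kept nuclei, highest in C57BL/6, and of them 1.74%, 6.29% and 3.40% were Slc47a1/Foxd1 nuclei. The Slc6a13/Ranbp3l nuclei moved in the same direction, at 1.26%, 2.71% and 2.09% of kept nuclei. Nuclei with at least 2 UMIs of Vtn, Rgs5, Kcnj8 and Abcc9 did too, at 0.246%, 1.12% and 0.663%. These are not given a cell type, since they held pericyte and smooth muscle markers at a summed 4417, 2980 and 3806 CPM and ensheathing glia markers at 2301, 6524 and 4288 CPM. The sets chosen on Aqp4 (0.205%, 0.726% and 0.426%), on Flt1 (0.1504%, 0.263% and 0.176%) and on neuron genes (9.02%, 20.5% and 20.2%) were also lowest in C57BL/6 and highest in Nav1 KO, so that the order was not particular to the Slc47a1/Foxd1 nuclei. The number of Slc47a1/Foxd1 nuclei per Slc6a13/Ranbp3l nucleus was 0.783, 1.02 and 0.702. Between libraries this ratio differed by 1.30 times (1.00 to 1.69) for Nav1 KO over C57BL/6 and by 0.897 times (0.679 to 1.19) for BTBR over C57BL/6. The first of these depended on the setting and was 0.706 after thinning each nucleus to 1000 UMIs and 1.88 when no UMI of the opposite set was allowed. The second lay between 0.703 and 1.02 over the settings tried, so that neither has a settled direction. Genotype, dissection and sort cannot be told apart with 1 library a group. A rule that needs 2 UMIs also depends on the UMIs counted in each nucleus. With every nucleus thinned to 500 UMIs, the ratio of the share of Slc47a1/Foxd1 nuclei was 2.93 (2.20 to 3.95) in Nav1 KO over C57BL/6. In BTBR over C57BL/6 it was 1.75 (1.29 to 2.41). Whether the libraries differed in the number of such nuclei or in the RNA of the rule genes in each was not tested.

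The 3 genes of the rule were high by construction, and their levels are a description. Slc47a1 was at 1069, 957 and 1422 CPM in the Slc47a1/Foxd1 nuclei, against 25.98, 24.4 and 3.90 CPM in the Slc6a13/Ranbp3l nuclei. Slc26a7 was at 336, 301 and 219 CPM, against 19.5, 2.44 and 0 CPM. Foxd1 was at 938, 1118 and 1072 CPM, against 244, 400 and 363 CPM. Slc47a1 and Slc26a7 were thus low in the Slc6a13/Ranbp3l nuclei, whereas Foxd1 was still counted there well above its level in neurons. In the neuron set the 3 genes were at 13.2 CPM or less in every library.

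Most chosen nuclei carried more than 1 of the 3 genes. Slc47a1 was counted in 71.7% of the 749 nuclei, Foxd1 in 86.1% and Slc26a7 in 37.4%, and all 3 were counted in 194 nuclei. A UMI of Slc47a1 was seen in 71.5%, 70.1% and 74.7% of Slc47a1/Foxd1 nuclei and in 1.82%, 2.94% and 3.91% of neurons, whose median depths were 5018, 5826 and 5180 UMIs. With every nucleus thinned to 500 UMIs, Slc47a1 was in 42.4%, 38.7% and 45.2% of Slc47a1/Foxd1 nuclei and in 0.152%, 0.277% and 0.368% of neurons. Foxd1 at that depth was in 11.96%, 19.9% and 20.1% of Slc6a13/Ranbp3l nuclei, far above the 0.0758%, 0.589% and 0.234% in neurons.

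Mgp and Fn1 were on the marker list but not in the rule. Mgp, an inhibitor of matrix calcification, was at 764, 996 and 391 CPM in the Slc47a1/Foxd1 nuclei and at 84.4, 89.1 and 29.3 CPM in the Slc6a13/Ranbp3l nuclei. Fn1, which encodes fibronectin, was at 336, 455 and 421 CPM against 110, 131 and 91.7 CPM. Both genes were higher in the Slc47a1/Foxd1 nuclei of each library, and the 3 library values of one set did not overlap those of the other. The level of Mgp differed more among libraries than that of Fn1, and BTBR was lowest for Mgp in both sets.

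**Figure D2:**
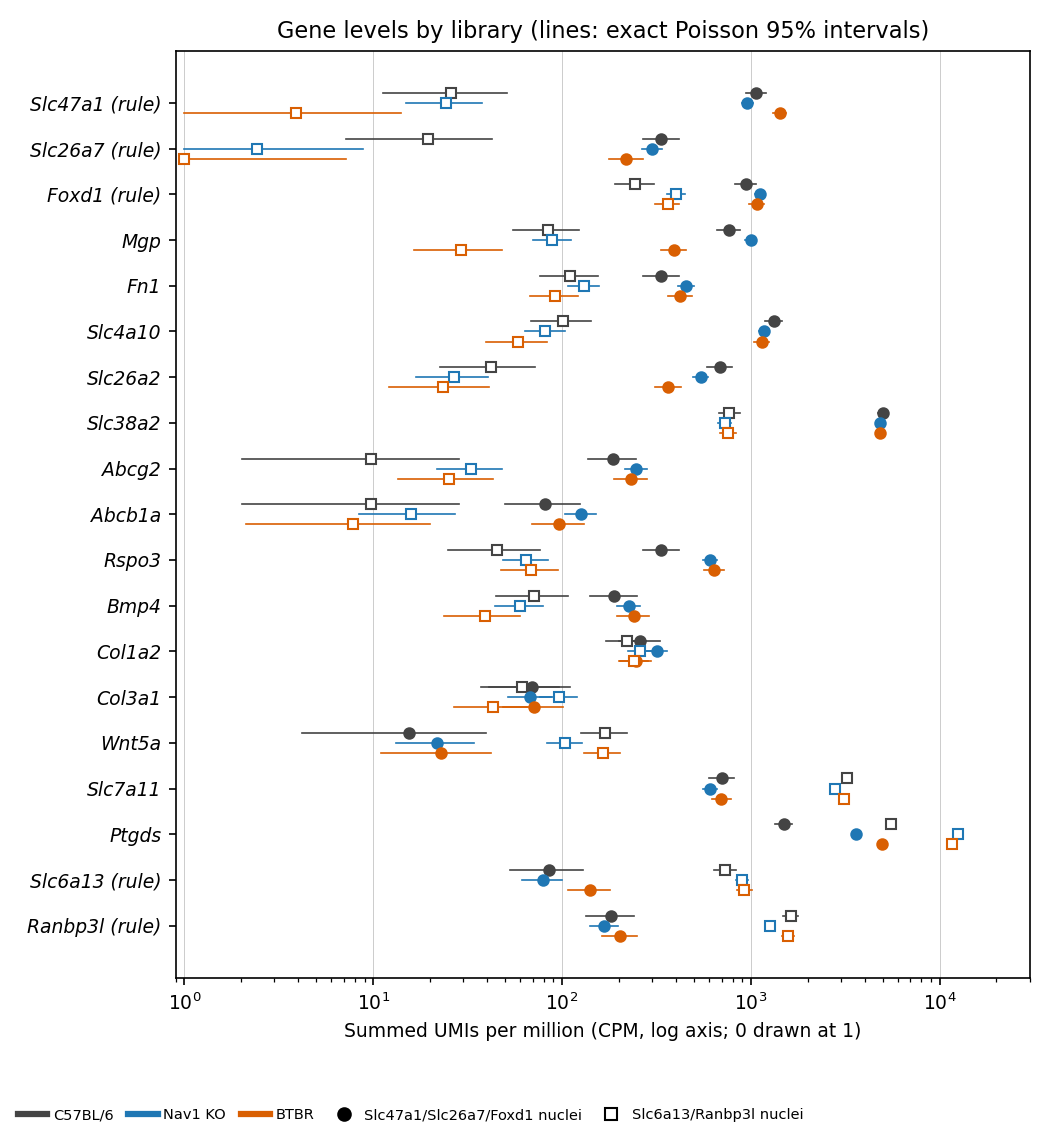
Points give the CPM (log axis) of 19 genes in each library, filled circles for the Slc47a1/Foxd1 nuclei and open squares for the Slc6a13/Ranbp3l nuclei, with exact Poisson 95% intervals as lines and 0 drawn at 1. Mgp, Fn1, Slc4a10 and Abcg2 were higher in the Slc47a1/Foxd1 nuclei of all 3 libraries, Wnt5a, Slc7a11 and Ptgds were lower, and Col1a2 and Col3a1 lay close together.

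The defining genes of several other cell types were near 0 in the Slc47a1/Foxd1 nuclei. Border macrophage markers had 5 of 6 genes at 0 UMIs in each library and summed to 7.72, 1.15 and 2.30 CPM. Choroid plexus and ependymal markers summed to 11.6, 25.3 and 29.9 CPM, with Kl the most counted and Ttr at 0 in C57BL/6 and BTBR. Microglia markers summed to 42.5, 89.5 and 57.5 CPM, with P2ry12 and Csf1r at 0 in C57BL/6. Endothelial markers summed to 88.8, 81.5 and 71.3 CPM, most of it from Cdh5, with Flt1 at 0 by the rule and Emcn at 0 in C57BL/6 and BTBR. Contractile genes of smooth muscle were also low, at 19.3, 41.3 and 23.0 CPM, and Myh11 was at 0 in each library.

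Other marker lists were not at 0. Astrocyte markers summed to 1976, 1588 and 2038 CPM, with all 8 genes present and Slc1a2, a glutamate transporter, the most counted at 942, 540 and 720 CPM. A set of nuclei chosen on Aqp4 held 9338, 7437 and 7342 CPM of this list, and the Slc6a13/Ranbp3l nuclei held 3355, 3062 and 3242 CPM. Aqp4 itself, the water channel of astrocytes, was at 54.0, 73.5 and 71.3 CPM in the Slc47a1/Foxd1 nuclei. Pericyte and smooth muscle markers summed to 259, 303 and 377 CPM, led by Pdgfrb in C57BL/6 and by Vtn in the other libraries, and ensheathing glia markers to 459, 766 and 607 CPM, led by Apod in Nav1 KO and BTBR. Oligodendrocyte markers summed to 498, 405 and 386 CPM and precursor markers to 371, 324 and 416 CPM. The labels give the cell type of all 3 samples as neurons, which these nuclei were chosen not to be. Neuron genes were limited by the rule, and the excitatory and inhibitory lists summed to 347, 316 and 317 CPM and to 197, 207 and 221 CPM. Nuclei with at least 2 UMIs over 11 genes of other cell types were 6.94%, 14.9% and 16.6% of the Slc47a1/Foxd1 nuclei and 18.5%, 35.7% and 35.9% of the Slc6a13/Ranbp3l nuclei. In the Slc47a1/Foxd1 set these had medians of 2142, 2625 and 2257.5 UMIs against 1301.5, 1830.5 and 1444 UMIs in the rest. The part of free RNA and of doublets in these values was not tested.

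**Figure D3:**
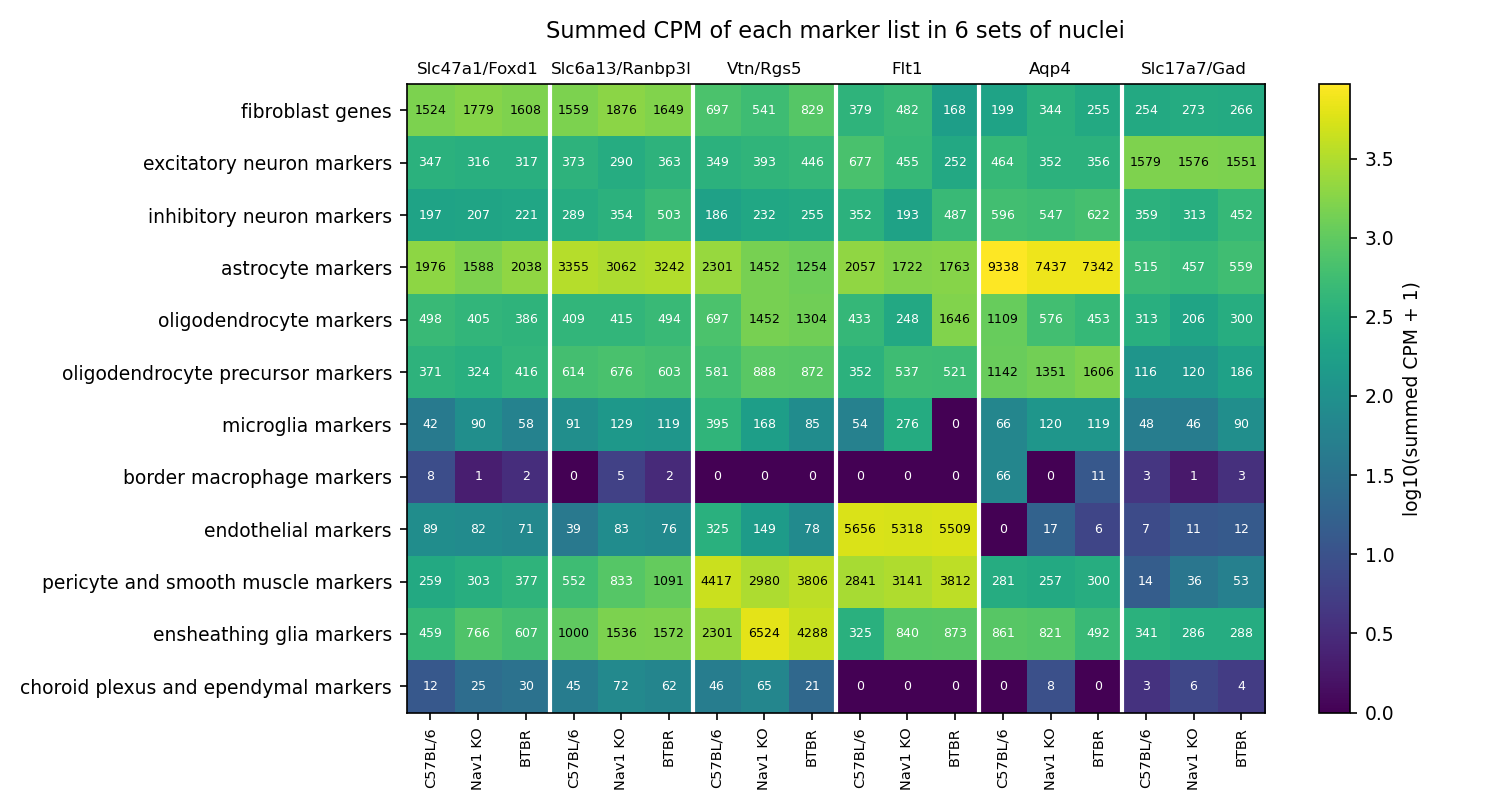
Each cell gives the summed CPM of a marker list (rows) in a set of nuclei and library (columns), colored by log10(summed CPM + 1). The Slc47a1/Foxd1 nuclei stood near the Slc6a13/Ranbp3l nuclei for fibroblast genes and below them for astrocyte markers in all 3 libraries.

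Against all other kept nuclei, 20 genes were named by the smallest of their folds in the 3 libraries, each computed after 5 CPM was added to both sides. These were Slc47a1, Foxd1, Slc26a7, Mgp, Bnc2, Slc26a2, Fn1, Ahnak2, Adamtsl3, Ahnak, Bmp4, Fbxl7, Foxc2, Slc38a2, Zic4, Phldb2, Dock5, Slc12a7, Col1a2 and Hmcn1. The nuclei were chosen on these counts, so the folds are a description. Among the genes outside the rule, Mgp led with folds of at least 27.9, followed by Bnc2, a zinc finger protein of mesenchymal cells, with folds of at least 26.1. Slc38a2, a sodium-coupled carrier of neutral amino acids, was at 5002, 4827 and 4824 CPM against 203, 277 and 264 CPM in the other nuclei, and it was counted in 89.99% of the 749 nuclei. The list mixes matrix genes (Fn1, Col1a2, Hmcn1), mesenchymal transcription factors (Foxc2, Zic4, Bnc2), a BMP ligand (Bmp4) and carriers (Slc26a2, Slc12a7, Slc38a2).

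The comparison with Slc6a13/Ranbp3l nuclei asks how the RNA of these nuclei differed from that of the other fibroblast-like set within the same libraries. UMIs were summed per library and set, and edgeR's quasi-likelihood test was fitted with the library as a block, so that the 3 libraries were the replicates. The 9 genes of the rules were left out of the test. Of 7690 genes tested, 441 (5.73%) were higher and 416 (5.41%) were lower in the Slc47a1/Foxd1 nuclei at a Benjamini-Hochberg adjusted p below 0.05, 11.1% in all. The median log2 fold change over all genes tested was -0.01, and 843 of the 857 called genes had the same sign in each of the 3 libraries. Over all genes tested this held for 3107 of 7690. The called genes were chosen by a test on the same libraries, so their shared sign is a description. At least 4-fold differences were found for 108 of the higher and 28 of the lower genes. Since the nuclei were sorted into sets by genes of the same libraries, the p-values say how a difference between these sets recurred over the 3 libraries. DESeq2 called 187 higher and 112 lower, and edgeR without the library block called 289 and 202. Without the C57BL/6 library 269 genes were higher and 183 lower, and without the Nav1 KO library 333 were higher and 243 lower.

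The 15 genes with the largest rise were Card14, Crispld1, Col8a1, Adamtsl3, Vsx1, Piezo2, Kcnk5, Slco4a1, Htra3, Slc26a2, Slc47a2, Slc35g1, Rfk, Anxa1 and Ceacam1, with log2 fold changes from 5.07 down to 4.02. Card14, a scaffold protein of NF-kappaB signaling, was at 100.3, 63.1 and 57.5 CPM in the Slc47a1/Foxd1 nuclei and at 3.25, 0 and 3.90 CPM in the Slc6a13/Ranbp3l nuclei. Piezo2, a mechanically gated channel, was at 42.5, 104 and 69.0 CPM against 3.25, 1.22 and 7.80 CPM. Slc26a2, a sulfate carrier needed for the sulfation of matrix proteoglycans, was at 683, 543 and 363 CPM against 42.2, 26.8 and 23.4 CPM (log2 fold change 4.16 ± 0.17 SE, adjusted p = 2.2e-15). All 3 genes were separated between the sets in each library, and most of the 15 had 0 or 1 UMI in at least 1 library of Slc6a13/Ranbp3l nuclei, so that their fitted fold rests on few counts on that side. Slc47a2, the close relative of the rule gene Slc47a1, was at 38.6, 45.9 and 52.9 CPM against 9.74, 1.22 and 0 CPM.

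The 15 genes with the largest fall were Slc6a12, Slc16a12, Wnt5a, Efcc1, Notum, Col9a2, Lef1, Fmod, Adra2a, Lamc3, Ndnf, Slc22a2, Cemip, Col26a1 and Slc6a20a, with log2 fold changes from -3.31 to -2.17. Slc6a12, a betaine and GABA transporter and a relative of Slc6a13, was at 7.72, 2.30 and 6.90 CPM in the Slc47a1/Foxd1 nuclei against 39.0, 43.9 and 60.5 CPM. Slc6a20a, a carrier of imino acids, was at 100.3, 139 and 117 CPM against 533, 560 and 593 CPM. Cemip, which takes part in the breakdown of hyaluronan, was at 30.9, 47.1 and 39.1 CPM against 192, 160 and 263 CPM. Slc6a12, Slc6a20a and Cemip were counted in the Slc47a1/Foxd1 nuclei of each library, at several times lower levels. Slc22a2 had 0 UMIs there in C57BL/6, and Col9a2 and Lamc3 had 1 UMI each.

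**Figure D4:**
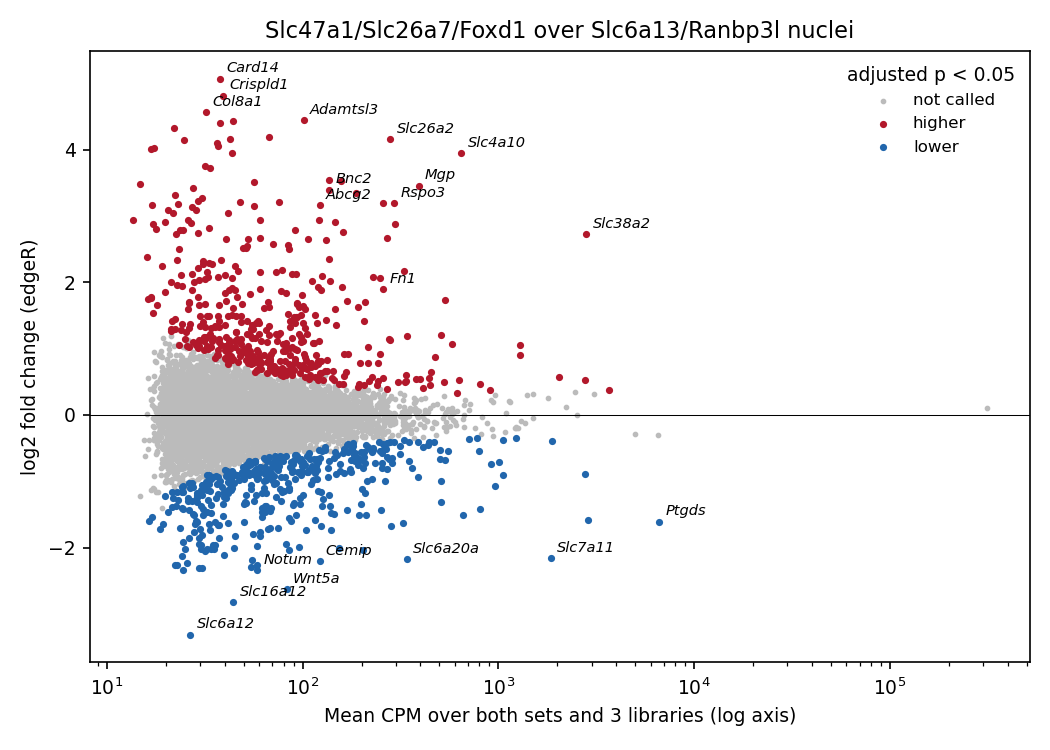
Each point is a tested gene, with its mean CPM over both sets and 3 libraries (log axis) and its log2 fold change in Slc47a1/Foxd1 over Slc6a13/Ranbp3l nuclei. Of 7690 genes, 441 were higher (red) and 416 lower (blue) at adjusted p below 0.05, and the called genes reach larger values on the higher side.

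Structural matrix genes split between the sets. Of 21 collagens tested, 7 were higher and 6 were lower, where 5.73% and 5.41% of all genes tested were, and the median log2 fold change was -0.05. Col8a1, a short-chain collagen, was at 65.6, 67.7 and 52.9 CPM against 0, 3.66 and 1.95 CPM. Col25a1, a membrane-bound collagen, was at 436, 332 and 255 CPM against 55.2, 31.7 and 19.5 CPM (log2 fold change 3.35 ± 0.18 SE, adjusted p = 6.5e-13). Col8a2, Col6a1, Col6a2 and Col23a1 also rose. Col12a1 passed the test (log2 fold change 1.07 ± 0.26 SE) but went the other way in BTBR, at 116, 158 and 39.1 CPM against 61.7, 47.6 and 52.7 CPM. Those that fell were Col26a1, Col13a1, Col4a6, Col4a5, Col27a1 and Col5a1. Among the basement membrane chains, Col4a5 and Col4a6 thus fell (log2 fold changes -1.82 and -1.95), while Col4a1 and Col4a2 did not pass the test (-0.09 and -0.19). The most widely used fibroblast collagens, Col1a1, Col1a2 and Col3a1, did not pass the test, with log2 fold changes of -0.06, 0.22 and -0.05.

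Of 27 matrix glycoproteins and proteoglycans tested, 8 were higher and 7 were lower, against 5.73% and 5.41% of all genes tested. Hmcn1, which encodes hemicentin, was at 336, 328 and 177 CPM against 32.5, 41.5 and 46.8 CPM. Mgp rose by 3.46 ± 0.14 SE and Fn1 by 1.90 ± 0.14 SE on the log2 scale (adjusted p = 3.5e-15 and 2.4e-10). Thbs1, Crispld1, Ltbp4, Fbln1 and Efemp1 were the others that rose. Of the small leucine-rich proteoglycans on the list, which bind collagen fibrils, Dcn, Lum and Fmod fell, while Bgn and Ogn did not pass the test (log2 fold changes 0.29 and 0.17). Dcn was at 46.3, 93.0 and 89.7 CPM against 146, 271 and 178 CPM, Lum was at 3.86, 10.3 and 9.20 CPM against 35.7, 36.6 and 48.8 CPM, and Fmod was among the 15 largest falls. Pdgfra, a receptor used as a fibroblast marker, also fell (log2 fold change -1.24).

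Signaling genes moved in both directions within a pathway. In the WNT list 4 of 16 tested genes were higher and 6 were lower, against 5.73% and 5.41% of all genes tested. Rspo3, a secreted amplifier of WNT signaling, was at 336, 611 and 639 CPM against 45.5, 64.7 and 68.3 CPM (log2 fold change 3.20 ± 0.14 SE, adjusted p = 2.3e-14). Sfrp4 (a secreted antagonist), Wnt16 and the co-receptor Lrp6 also rose. The ligand Wnt5a was at 15.4, 21.8 and 23.0 CPM against 169, 104 and 164 CPM. The ligands Wnt4 and Wnt6 fell as well, along with Lef1, Axin2 and Notum, which are known targets of the canonical pathway.

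In the BMP and TGF beta list 7 of 21 tested genes were higher and 3 were lower, against the same 5.73% and 5.41%. The ligand Bmp4 was at 189, 226 and 239 CPM against 71.5, 59.8 and 39.0 CPM (log2 fold change 2.02 ± 0.19 SE, adjusted p = 1.6e-08). Bmp5, Tgfb3, the receptor Tgfbr2, the secreted binding protein Fstl1 and the target genes Id1 and Id2 rose too. Id1 was at 158, 216 and 166 CPM against 32.5, 62.2 and 33.2 CPM. The ligands Bmp2, Bmp6 and Bmp7 fell, with log2 fold changes of -1.47, -1.02 and -0.69. The called ligands thus went in both directions. The receptors Bmpr1a, Bmpr1b and Bmpr2 did not pass the test (log2 fold changes 0.20, -0.85 and 0.23). The change of Bmpr1b was larger than that of the called ligand Bmp7, so not passing does not show that a receptor was unchanged.

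In the IGF list, 2 of 9 tested genes were higher and 3 were lower, against 5.73% and 5.41% overall. The binding proteins Igfbp5 and Igfbp6 rose, and Igfbp5 was at 486, 458 and 639 CPM against 61.7, 90.3 and 50.7 CPM. The binding protein Igfbp2, the ligand Igf2 and the receptor Igf1r fell. Of 8 retinoid genes tested, 2 were lower. Both act on retinoic acid itself, Aldh1a2 in its synthesis (log2 fold change -2.01) and Cyp26b1 in its breakdown (-1.95). Aldh1a2 was at 19.3, 12.6 and 25.3 CPM against 65.0, 75.6 and 70.2 CPM.

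Transporters fell more often than they rose. Of 33 tested, 15 were lower and 8 were higher (5.73% higher and 5.41% lower over all genes tested), with a median log2 fold change of -0.54 against -0.01 over all genes tested. Slc4a10, a sodium-dependent bicarbonate carrier, was at 1320, 1173 and 1143 CPM against 101, 81.7 and 58.5 CPM (log2 fold change 3.95 ± 0.14 SE, adjusted p = 2.6e-16). It was also counted in neurons, at 154, 153 and 150 CPM. The others that rose were Slc26a2, Slc38a2, Abcg2, Abcb1a, the prostaglandin carrier Slco2a1, and the monocarboxylate carriers Slc16a1 and Slc16a11. Slc7a11, the cystine and glutamate exchanger, fell from 3241, 2781 and 3114 CPM in the Slc6a13/Ranbp3l nuclei to 702, 607 and 699 CPM. Carriers of organic anions (Slc22a6, Slc22a8), of dicarboxylates and sulfate (Slc13a3, Slc13a4) and of organic cations (Slc22a2) were lower too.

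On the arachnoid barrier list, 4 of 9 tested genes were higher and 2 were lower (5.73% higher and 5.41% lower over all genes tested). The efflux pump Abcg2 was at 185, 248 and 232 CPM against 9.74, 32.9 and 25.4 CPM (log2 fold change 3.17 ± 0.21 SE, adjusted p = 3.0e-11). Abcb1a, which encodes P-glycoprotein, was at 81.0, 126 and 96.6 CPM against 9.74, 15.9 and 7.80 CPM. The transcription factor Klf5 and Cdh1, which encodes E-cadherin, rose as well, Cdh1 from few counts (log2 fold change 1.65 ± 0.43 SE, adjusted p = 0.0098). Wnt6 and Ppp1r1a fell, and Cldn11, a tight junction gene of this barrier, did not pass the test (log2 fold change 0.68). Of the remaining 4 genes, Krt8 and Krt18 had 0 UMIs in each library, Dsp had 1 UMI in Nav1 KO and 0 in the others, and Dpp4 was at 15.4, 29.8 and 25.3 CPM. UMIs of these efflux pumps were thus counted in each library, while keratin UMIs were not detected at this depth. The list was not particular to these nuclei. It summed to 629, 792 and 846 CPM here and to 1109, 799 and 1226 CPM in the nuclei chosen on Flt1. There Abcb1a was the most counted gene of the list in Nav1 KO and BTBR, at 276 and 554 CPM.

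Of 9 genes tested on a dural fibroblast list, 6 were higher (Col8a1, Mgp, Fxyd5, Foxp2, Foxp1 and Smoc2) and Fmod was lower, where 5.73% and 5.41% of all genes tested were. Foxp1, a forkhead repressor, was at 807, 806 and 833 CPM against 289, 231 and 246 CPM. Dkk2, the tenth gene, had 0 UMIs in each library. The list of genes linked to Slc6a13 fibroblasts went the other way, with 6 of 10 tested genes lower and 3 higher, against 5.41% and 5.73% overall. The 3 that rose were Adamtsl3, a secreted matrix protein, Bnc2 and the transcription cofactor Eya2, against the name of the list. Bnc2 was at 301, 255 and 191 CPM against 29.2, 25.6 and 15.6 CPM.

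Mesenchymal transcription factors rose more often than they fell. Of 26 tested, 9 were higher and 2 were lower, with a median log2 fold change of 0.20. Over all genes tested the shares were 5.73% and 5.41%, and the 2 lower genes are near that background. Tbx15, a T-box factor of mesenchyme, was at 42.5, 51.7 and 50.6 CPM against 9.74, 6.10 and 1.95 CPM. Foxc2, Prrx2, Foxp1, Foxp2, Bnc2 and Eya2 also rose, and Nr2f2 and Runx1t1 fell. Zic4 passed the test (log2 fold change 0.51) with BTBR on the other side, at 440, 363 and 366 CPM against 250, 209 and 386 CPM. Foxc1, Zic1, Tfap2b and Prrx1 had log2 fold changes of -0.04, 0.06, 0.01 and 0.25 and did not pass the test.

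Secreted lipid carriers and immune genes were mostly lower. Ptgds, the lipocalin-type prostaglandin D synthase, was at 1494, 3586 and 4922 CPM in the Slc47a1/Foxd1 nuclei against 5495, 12518 and 11655 CPM (log2 fold change -1.61 ± 0.12 SE, adjusted p = 3.2e-10). Apoe, Apod and Cp fell with it, and Ptgis, the prostacyclin synthase, rose, so that 4 of 7 tested genes were lower and 1 was higher, against 5.41% and 5.73% of all genes tested. Of 6 complement and chemokine genes tested, 5 were lower, among them Cxcl14, Cxcl12, C4b and Il34, and none was higher, with the same shares over all genes. Ptgds and Apoe were also counted in other cell types, and Ptgds was at 91.0, 299 and 252 CPM in the neuron set. Of 14 junction genes tested, Cdh1, Cdh11 and Gja1 rose, Gjb6 fell, and 10 did not pass. Of the astrocyte markers, 4 of 8 were lower (Slc1a3, Slc1a2, Aldoc and Aqp4) and Gja1 was higher. Ptprz1, Pdgfrb, Vtn, Npy, Kl and the contractile gene Lmod1, all on lists of other cell types, were lower too. UMIs of other cell types were more frequent in the Slc6a13/Ranbp3l nuclei, as given above. With at most 1 such UMI per nucleus, 379 of 5560 genes tested were higher and 331 were lower. Of these calls, 620 were also calls of the main comparison. The part of such UMIs in the falls of the genes named here was not tested.

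The Slc47a1/Foxd1 nuclei were not uniform, and the genes of the rule that a nucleus carried went with other genes. Nuclei with Foxd1 but neither Slc47a1 nor Slc26a7 numbered 26, 94 and 46, or 18.1%, 24.2% and 21.2%. Nuclei with both Slc47a1 and Slc26a7 numbered 46, 135 and 53. Ranbp3l, which the rule limited and which is given as a description only, was at 561, 334 and 462 CPM in the Foxd1-alone nuclei and at 118, 134 and 122 CPM in the nuclei with both genes. Mgp was at 160, 345 and 115 CPM in the former and at 1545, 1370 and 428 CPM in the latter. Ptgds was at 6229, 6729 and 8950 CPM in the former and at 563, 2482 and 4574 CPM in the latter. In Mgp and Ptgds, which the rule did not use, the Foxd1-alone nuclei lay nearer to the Slc6a13/Ranbp3l nuclei than the nuclei with both genes did in each library, and their intervals did not overlap those of the nuclei with both genes. The classes were formed on the rule genes, so this is a description with no test.

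**Figure D5:**
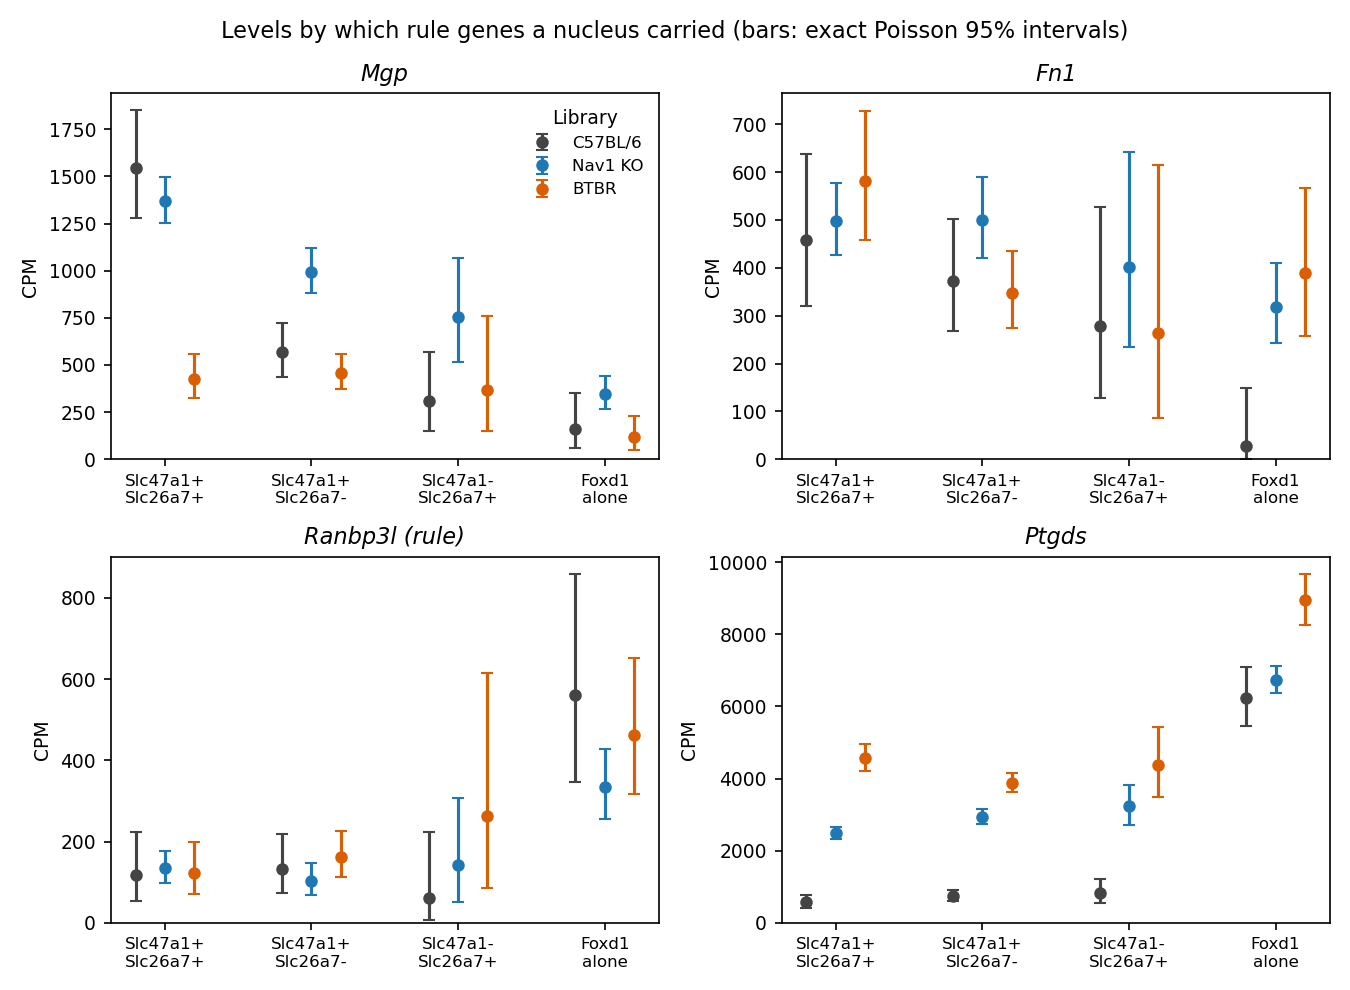
Points give the CPM of Mgp, Fn1, Ranbp3l and Ptgds in each library, by which rule genes a nucleus carried, with exact Poisson 95% intervals as lines. Mgp was lowest and Ranbp3l and Ptgds were highest in the nuclei with Foxd1 alone in all 3 libraries.

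The split among carried genes also depends on depth, since the Foxd1-alone nuclei had medians of 1070, 1648 and 1046.5 UMIs against 1363.5, 2093 and 2124 UMIs in the nuclei with both genes. Each nucleus was also thinned to 500 UMIs and placed by the genes it then carried. Ptgds was then at 6276, 5658 and 8364 CPM in the Foxd1-alone nuclei and at 143, 1389 and 2600 CPM in nuclei with both genes. It was at 383, 3000 and 4227 CPM with Slc47a1 and no Slc26a7. The 10 BTBR nuclei with Slc26a7 and no Slc47a1 had 9400 CPM, above the Foxd1-alone nuclei. Mgp was at 276, 865 and 291 CPM in the Foxd1-alone nuclei and at 3000, 1778 and 1000 CPM in nuclei with both genes. These Mgp intervals overlapped in BTBR. Leaving the Foxd1-alone nuclei out, an alternative chosen after seeing the data, gave 525 higher and 506 lower genes against the Slc6a13/Ranbp3l nuclei. Fn1 was at 26.7, 318 and 390 CPM in the Foxd1-alone nuclei, the first from 1 UMI, and at 458, 498 and 581 CPM in the nuclei with both genes. Its intervals did not overlap in C57BL/6 and Nav1 KO and did in BTBR.

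Values near the threshold of the rule were also read. Nuclei with a sum of 1 UMI, which met the other limits and were left out, numbered 165, 190 and 222, and had Mgp at 51.9, 207 and 28.3 CPM and Col1a2 at 66.7, 113 and 56.5 CPM. Nuclei with a sum of 2 numbered 47, 96 and 54, and had Mgp at 450, 421 and 111 CPM and Col1a2 at 273, 182 and 246 CPM. Nuclei with a sum of at least 4 numbered 71, 231 and 128, and had Mgp at 991, 1256 and 482 CPM. The marker gene Mgp outside the rule thus stepped up between 1 and 2 UMIs in each library and was higher again at 4 or more.

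Between libraries, each gene of the Slc47a1/Foxd1 nuclei can be given as a ratio with an interval for counting error, but not tested. For Nav1 KO over C57BL/6, 7035 genes had at least 20 UMIs in 1 of the 2 libraries, of which 362 (5.15%) were at least 2-fold higher and 103 (1.46%) at least 2-fold lower after 5 CPM was added to both sides, with a median fold of 0.993. For BTBR over C57BL/6 there were 4034 such genes, of which 192 (4.76%) were higher and 103 (2.55%) lower, with a median fold of 1.02. The Nav1 KO nuclei held more than 3 times the UMIs of the C57BL/6 nuclei, so more genes passed the minimum through Nav1 KO and the 2 directions were not equally open. These counts depended on low genes. With at least 50 UMIs in 1 library they were 70 higher and 12 lower for Nav1 KO and 19 and 15 for BTBR, and with 20 CPM added they were 78 and 16, and 83 and 51. Both contrasts share the C57BL/6 library. Of the markers that the rule did not use, Fn1 stayed within 2-fold in both contrasts, as did the astrocyte markers that could be compared. Mgp had ratios of 1.30 (1.12 to 1.53) in Nav1 KO and 0.512 (0.414 to 0.631) in BTBR over C57BL/6, the latter at the edge of 2-fold. Both ratios depended on the class of nuclei. In the nuclei with both Slc47a1 and Slc26a7, Mgp was at 1545, 1370 and 428 CPM. There the BTBR ratio was lower still, and Nav1 KO was not above C57BL/6. In the Foxd1-alone nuclei Mgp was at 160, 345 and 115 CPM.

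A gene was ranked by its ratio when it reached 50 CPM on one side and 20 UMIs on the other, and Ptgds was among the 5 highest of these in both contrasts. From the levels given above, its ratio was 2.40 (2.16 to 2.68) in Nav1 KO and 3.30 (2.96 to 3.68) in BTBR over C57BL/6. In the Slc6a13/Ranbp3l nuclei the ratios were 2.28 and 2.12, and in all other kept nuclei they were 3.70 and 2.57. The gene was therefore lowest in C57BL/6 in all 3 of these sets. Without the Foxd1-alone nuclei the ratios were 3.91 and 5.99.

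The other high ratios in Nav1 KO were those of Arap1 (2.49, 1.40 to 4.83), Efemp1 (2.34, 1.51 to 3.79), Itga10 (2.33, 1.31 to 4.53) and Apod (2.23, 1.66 to 3.05). Efemp1, a fibulin of the matrix, was at 88.8, 208 and 124 CPM, and its ratio was 1.90 in the Slc6a13/Ranbp3l nuclei and 2.16 in all other nuclei. Itga10, a collagen-binding integrin, had ratios of 2.18 and 1.64 there. The lowest ratios in Nav1 KO were those of Rap1gap (0.240, 0.129 to 0.444), Zfp280c (0.284), Gopc (0.329), Rapgef2 (0.338) and Ankrd24 (0.344), each from 19 to 26 UMIs in either library. Rap1gap and Rapgef2 both act on the small GTPase Rap, as an inactivator and an activator. Their ratios were 0.626 and 0.663 in the Slc6a13/Ranbp3l nuclei and 0.530 and 0.733 in all other kept nuclei. The intervals in the Slc47a1/Foxd1 and Slc6a13/Ranbp3l nuclei overlapped for both genes. Both were picked as lowest in the Slc47a1/Foxd1 nuclei, so values nearer to 1 elsewhere are not read as a difference between sets.

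In BTBR the highest ratio was that of Pde5a, the cyclic GMP phosphodiesterase. It was at 77.2, 71.2 and 331 CPM, a ratio of 4.29 (2.68 to 7.23) in BTBR over C57BL/6. In the Slc6a13/Ranbp3l nuclei the ratio was 3.604 (1.24 to 14.3) and in all other nuclei 1.87. Ssr4 (2.66, 1.56 to 4.81), Vtn (2.43, 1.54 to 3.98) and Fjx1 (2.41, 1.498 to 4.04) followed Ptgds. Ssr4, a subunit of the translocon-associated complex, had a ratio of 0.966 in the Slc6a13/Ranbp3l nuclei. Vtn, which is also a pericyte marker, had a ratio of 3.01 in all other nuclei, and it was 0.996 among Slc47a1/Foxd1 nuclei with at most 1 UMI of other cell types, a setting whose list holds Vtn.

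The lowest ratios in BTBR were those of Gm20559 (0.2503, 0.143 to 0.424), AC149090.1 (0.277, 0.213 to 0.357), Anxa3 (0.287, 0.193 to 0.422), AY036118 (0.336, 0.289 to 0.389) and D10Wsu102e (0.355, 0.214 to 0.579). Anxa3, a phospholipid-binding annexin, was at 328, 262 and 94.3 CPM, so that BTBR was the library that stood apart. Its ratio was 0.285 in the Slc6a13/Ranbp3l nuclei and 0.390 in all other nuclei. AC149090.1 was at 756, 835 and 209 CPM, with ratios of 0.391 and 0.237 there. AY036118 was at 1926, 706 and 646 CPM and was lower in both other libraries than in C57BL/6. The low ratios of Anxa3, AC149090.1 and AY036118 were thus found across the sets of nuclei in BTBR.

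Among list genes with at least 20 UMIs in both libraries, those past 2-fold in Nav1 KO over C57BL/6 were Ptgds, Apod, Efemp1 and Fxyd5. Fxyd5, a regulator of the sodium pump on the dural list, was at 135, 278 and 223 CPM, a ratio of 2.06 (1.44 to 3.02) in Nav1 KO over C57BL/6. In BTBR over C57BL/6 they were Ptgds, Vtn, Sparcl1 (ratio 2.03, 1.51 to 2.78) and Bmpr2 (ratio 0.473, 0.261 to 0.846). Sparcl1, a matricellular protein that astrocytes also make, was at 224, 340 and 455 CPM. Other list genes passed the minimum through 1 library only, so their number is not read. Wnt6, for example, had 2 UMIs in C57BL/6 and 25 in Nav1 KO (ratio 3.72, 0.927 to 32.4), and Igfbp4 had 4 and 44 UMIs (3.27, 1.19 to 12.5).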

How the data were processed

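Nuclei of the PFC were profiled in 3 droplet libraries, 1 per group. The authors deposited a filtered matrix of UMI counts per library, and per the labels Cell Ranger 6.0.0 and the mm10 build were used. The settings for introns and multi-mapped reads are not given in the sources used here. The sequencing platform is stated for the Nav1 KO and C57BL/6 samples only. The counts were used as deposited.

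Barcodes under 200 genes (2, 1 and 0) or at 10% mitochondrial counts or more (772, 567 and 460) were left out. No doublet caller was run, and UMIs of other cell types were counted instead. The members, the comparison sets and the gene lists were chosen with earlier results of these data known, so no list is independent evidence. CPM are summed UMIs of a set per 1000000 of its UMIs, with exact Poisson intervals. Shares have Clopper-Pearson intervals and ratios have 95% intervals computed exactly by splitting the summed counts binomially. With 3 counts as a floor, the detection limit in the Slc47a1/Foxd1 nuclei was 11.6, 3.44 and 6.90 CPM. Sets were compared with edgeR 4.0.16 in R 4.3.3 (TMM, filterByExpr, glmQLFit, library as block), and DESeq2 1.42.0 was the alternative. The same library gave both sets, and the deviations of the 2 sets of a library correlated across 7690 genes at 0.320, 0.317 and 0.314. On simulated counts of this comparison (7607 genes), the test called 98.0% of genes raised 4-fold and 83.8% of those lowered 4-fold. It called 34.7% of those raised 2-fold, 21.6% of those lowered 2-fold, and 3 of 7434 unchanged genes. The simulation gave all genes the same assumed dispersion and all libraries the same means. Changed genes were drawn only from those above a minimum expected count. These rates therefore describe that setting and need not hold for the real counts. Named genes were those of the rule and lists, 15 at each end of the test, 20 leading genes and 5 ratios at each end between libraries (at least 50 CPM in 1 library and 20 UMIs in the other). Python 3.11.15 was used for counting. Nuclei of other cell types were not analysed here except as comparison. A few list members were counted but are left unnamed in the text.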

Additional observations from a re-analysis of the deposited data

How the results depend on the processing

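The p-values of the comparison with Slc6a13/Ranbp3l nuclei rest on 3 libraries, and low genes have few UMIs, so a gene that did not pass may still differ. Without the replicate block, 289 genes were higher and 202 lower, and DESeq2 called 187 and 112. Leaving out 1 library at a time gave 269 to 401 higher and 183 to 360 lower genes. With at most 1 UMI of other cell types per nucleus, 379 of 5560 genes tested were higher and 331 were lower. Of the 30 genes named at the ends of this test and Fn1, 1 lost its call where it could be tested, Adra2a under DESeq2 (adjusted p = 0.0510), and the fit without the block kept the call of these 31 genes, with other list genes not followed one by one. The ratio of Slc47a1/Foxd1 to Slc6a13/Ranbp3l nuclei in Nav1 KO over C57BL/6 was 1.88 when no UMI of the opposite set was allowed and 0.706 after thinning to 1000 UMIs, so its direction was not stable, and in BTBR it lay between 0.703 and 1.02, while the ratio of their share among kept nuclei stayed between 2.56 and 3.26 in Nav1 KO and between 1.34 and 1.75 in BTBR. Counts of 2-fold ratios depended on the treatment of low genes. For Nav1 KO they were 78 higher and 16 lower with 20 CPM added, and 70 and 12 with a minimum of 50 UMIs. For BTBR they were 83 and 51 with 20 CPM added, 19 and 15 with a minimum of 50 UMIs, and 63 lower with at least 3 UMIs of the rule genes. The ratio of Vtn in BTBR turned from 2.43 to 0.996 with at most 1 UMI of other cell types, a limit that counts Vtn itself.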
